A study of Saccharomyces cerevisiae with 83 samples.

Results

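The strain AGY1862 was followed in the second of 2 batches of a pooled growth experiment on extra gene copies in budding yeast, and its 3 libraries of generation 10 were compared with its 3 libraries of generation 0. These 6 libraries were chosen by their strain, batch and generation labels and not by any measured value. They are 6 of the 83 libraries of the series and of the 51 libraries of batch 2. Each cell of a pool carried 1 centromeric plasmid with 1 barcoded yeast gene, so that most cells held 1 extra copy of that gene, and what was counted is how often each barcode was sequenced. The series covers euploid haploids and haploids with an additional chromosome IV, VII, XII or XV, in each case with SSD1 or without it. SSD1 encodes an RNA-binding protein. The sources used here do not say which karyotype or SSD1 state AGY1862 has, so it is named by its number, as are the other strains.

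All AGY1862 libraries came from haploid cells of the YPS1009 background, a North American lineage. The generation 0 group was the part of each frozen stock that was not inoculated. The generation 10 group was grown at 30 °C from an OD600 of 0.05 and diluted back to 0.05 at generation 5. The medium lacked histidine and held nourseothricin at 100 mg per L, which keeps amplified chromosomes in place, and G418 at 200 mg per L, which selects for the plasmid. The same medium and drugs were used for every strain in batch 2. The 3 replicates of a strain in batch 2 were described as separate transformations of the plasmid library. The authors amplified the barcodes with 20 PCR cycles, without molecular identifiers being described, so intervals and floors below cover counting error only.

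A centromeric plasmid is held at a low copy number, close to that of a chromosome. When cells of such a pool grow together, a barcode loses its share of the pool if its carriers divide more slowly than the rest or lose the plasmid, and gains share if they divide faster. A barcode count cannot tell these apart. The values are therefore shares of a pool and not gene expression. Levels are given as CPM, a count scaled to the usual common library total, after TMM scaling, which matches libraries on the bulk of their barcodes, and changes as log2 of generation 10 over generation 0 with the standard error (SE) from edgeR's quasi-likelihood fit.

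The total counts of the generation 0 libraries of AGY1862 were 6953487, 3922180 and 6859948 for replicates 1, 2 and 3. Those of the generation 10 libraries were 2016581, 924031 and 2439515. Replicate 2 was the shallowest library at both times. At generation 0, 0, 2 and 0 of the 4871 gene entries had no count, and at generation 10, 363, 465 and 302 had none. In the generation 10 library of replicate 2, 1 count was worth 1.22 CPM, against 0.479 and 0.391 CPM in replicates 1 and 3.

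Of the 4579 entries that passed the filter on low counts, 526 fell (11.5%) and 307 rose (6.7%) between generation 0 and generation 10 at an adjusted p under 0.05, by edgeR's quasi-likelihood test with Benjamini-Hochberg adjustment over all entries tested, which is 833 in all (18.2%). At an unadjusted p under 0.05 there were 1368 entries (29.9%). With library size alone as the scaling the split was 584 lower and 168 higher, and without the libraries of AGY1861 in the fit it was 427 and 387. The falls were the larger changes. Genes that fell furthest ended at a few CPM, whereas the largest rise with at least 50 counts at generation 0 and no overlap of groups was 3.42-fold. Among called entries with a mean of at least 50 counts at generation 0, 760 in number, 696 had generation 10 libraries that all lay on 1 side of all generation 0 libraries, 452 of them lower and 244 higher. Over all entries tested, the groups were apart in this way for 1847 entries, 1158 lower and 689 higher. A total of 107 of the entries that fell were at 0 in all 3 generation 10 libraries.

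**Figure D1:**
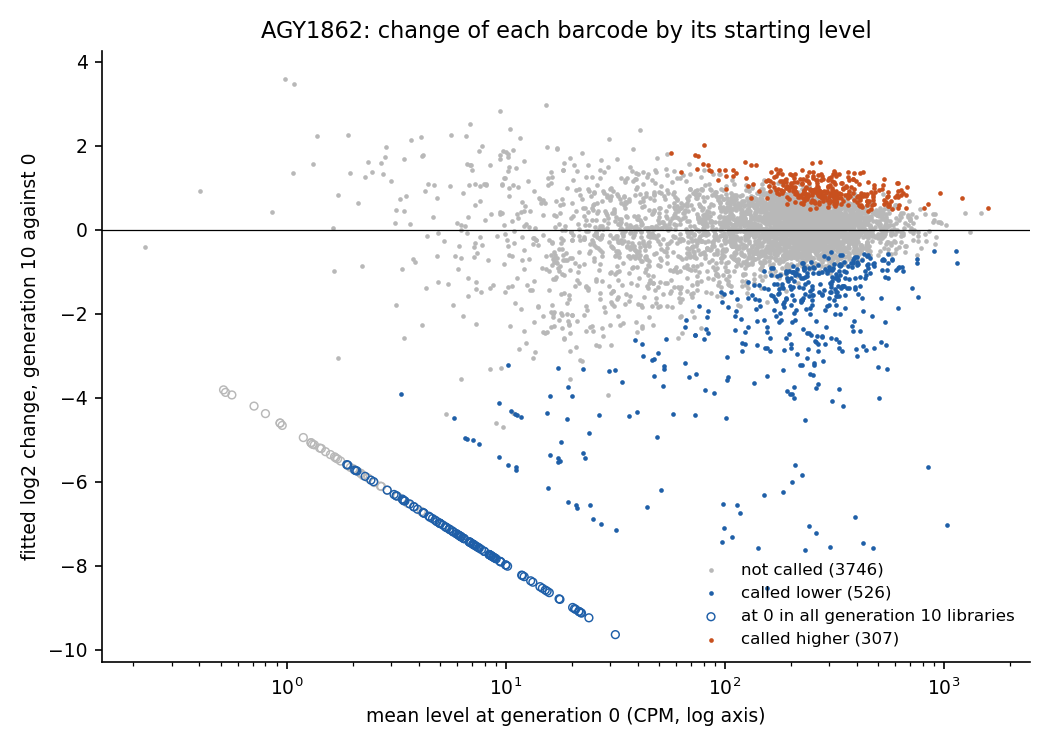
Log2 change of each entry tested in AGY1862 (generation 10 over generation 0, vertical axis) against its mean level at generation 0 in CPM (horizontal axis, log scale). Blue points are the 526 entries called lower, orange points the 307 called higher, grey points the 3746 not called, and open circles mark entries at 0 in all 3 generation 10 libraries. The deepest falls reach below -7, and no entry under 10 CPM at generation 0 was called higher.

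The starting level of a plasmid went with what could be called. Of the 255 entries under 10 CPM at generation 0, 36.1% fell, 0 rose, and 122 were at 0 in all 3 generation 10 libraries. In the 2293 entries between 100 and 300 CPM, 8.68% fell and 7.02% rose. In the 972 entries above 300 CPM, 14.2% fell and 13.8% rose. The spread between replicates was much wider after growth than before it. The median SD of log2 CPM was 0.0507 at generation 0 and 0.56 at generation 10 in entries of 100 to 300 CPM, and 0.0378 and 0.407 above 300 CPM. Across entries, Spearman's rho between replicates was 0.989 to 0.995 at generation 0 and 0.745 to 0.836 at generation 10. These coefficients describe entries that share libraries, not independent replicates.

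The generation 10 library of replicate 2 stood apart among the genes that rose. It held the highest of the 3 values for 219 of the 307 genes that rose, against 55 for replicate 1 and 33 for replicate 3. Among the 526 that fell it was highest for 106, against 247 and 173. Without that library, 464 entries were called lower and 161 higher. Without both libraries of replicate 2, 363 were lower and 69 higher. A total of 251 falls and 27 rises kept their call in each of the 9 fits that left out 1 of the 6 libraries or both libraries of 1 replicate number. With the replicate number as a block, 673 entries were called lower and 336 higher over all batch 2 libraries, and 80 lower and 0 higher over the 6 AGY1862 libraries alone. Among the changes described below, those of YML119W, PRE4, STI1, AUR1, GLC8, TPM2, ATP4, RPC34, MET12 and PBS2 were not called with the block over all batch 2 libraries, nor were the differences of GPT2, FBA1, MCO10, YDL124W and UBX3 from the mean of 5 strains or those of SIS1, ECM15 and ERG3 from AGY1611. Values below are given by library for these reasons, in the order of replicates 1, 2 and 3.

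The deepest falls among well-counted plasmids, those with a mean of at least 1000 counts at generation 0, reached into sterol and sulfur metabolism, translation, chaperones and the spindle. Of the genes named here and in the next paragraphs, ERG26, EFM5, MET14, TFC3, DEG1 and DOM34 lie next to a centromere, a group described below. ERG3 (YLR056W), the C-5 sterol desaturase of ergosterol synthesis, stood at 445, 512 and 460 CPM at generation 0 and at 1.92, 0 and 3.91 CPM at generation 10. Its mean level was 243-fold lower, a log2 change of -7.57 with an SE of 0.54 (adjusted p = 4.15e-15 by edgeR). ERG26 (YGL001C), the C-3 sterol dehydrogenase of the same pathway, went from 179, 188 and 188 CPM to 3.35, 0 and 2.74 CPM. In both, every generation 10 library was far under every generation 0 library. The mean levels of ERG3 and ERG26 at generation 10, 1.94 and 2.03 CPM, lay under a floor of 3 counts per library, on average 2.09 CPM. So did those of EFM5 (1.20 CPM), MET14 (1.26 CPM) and STV1 (1.70 CPM), described in the next paragraphs. The folds and log2 changes of these genes rest on few counts and are not exact depths.

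SSQ1 (YLR369W), the mitochondrial Hsp70 that serves iron-sulfur cluster assembly, had the smallest p of all entries. It started at 1027, 1023 and 1060 CPM and ended at 7.67, 6.09 and 9.0 CPM, which is 137-fold lower (log2 change -7.03, SE 0.43, adjusted p = 2.07e-17 by edgeR). The 3 generation 10 values lay close together. EFM5 (YGR001C), a lysine methyltransferase of translation elongation factor eEF1A, fell from 232, 267 and 200 CPM to 2.40, 1.22 and 0 CPM, 194-fold. MET14 (YKL001C), the adenylylsulfate kinase of sulfate assimilation, fell from 294, 299 and 308 CPM to 1.44, 0 and 2.35 CPM, 238-fold. TFC3 (YAL001C), a subunit of the RNA polymerase III factor TFIIIC, fell from 437, 425 and 422 CPM to 3.83, 2.44 and 1.17 CPM, 173-fold.

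Genes of a proton pump, the kinetochore and microtubules were also among the deep falls. STV1, a membrane subunit isoform of the vacuolar-type proton pump, changed by -7.04 on the log2 scale with generation 10 levels of 1.92, 1.22 and 1.96 CPM. NNF1, of the MIND complex of the kinetochore, changed by -5.99. TUB2 (YFL037W), the only β-tubulin of budding yeast, went from 217, 221 and 233 CPM to 2.87, 1.22 and 6.26 CPM, a log2 change of -5.84 with an SE of 0.80 (adjusted p = 3.73e-07 by edgeR). The groups did not overlap for any of the 3.

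In translation and RNA modification, DEG1, a tRNA pseudouridine synthase, changed by -6.83 and DOM34, a ribosome rescue factor, by -5.64. DOM34 varied more between replicates than the others, with 5.27, 47.5 and 9.39 CPM at generation 10 after 917, 759 and 867 CPM. Replicate 2 was the highest of the 3 at generation 10, yet it lay far under the lowest generation 0 value. NUP60, of the nuclear basket of the pore, fell to 15.8, 15.8 and 23.9 CPM (log2 change -4.20), and SHQ1, an assembly factor of H/ACA ribonucleoproteins, to 0.479, 9.74 and 27.0 CPM (-4.01). STE4, the β subunit of the mating G protein, fell to 20.6, 19.5 and 17.2 CPM (-3.77), and RNR2, a small subunit of ribonucleotide reductase, to 4.31, 9.74 and 30.1 CPM (-3.75). The replicates of STE4 lay close together, and those of SHQ1 and RNR2 were spread widely.

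Plasmids that started lower and had no count in any of the 3 generation 10 libraries permit only a bound on the fall, set by a floor of 3 counts per library. LPX2 (YKL050C) was at 28.6, 31.8 and 34.4 CPM at generation 0 and at least 15.1-fold lower at generation 10. GPT2, a glycerol-3-phosphate acyltransferase of phospholipid synthesis, was at 24.6, 25.7 and 21.6 CPM and at least 11.5-fold lower. SPC24, of the Ndc80 complex of the kinetochore, was at least 10.4-fold lower, TFC7, another TFIIIC subunit, at least 9.98-fold, and MTR10, a nuclear import receptor, at least 9.86-fold. CCT3, a subunit of the cytosolic chaperonin, was at 20.6, 20.7 and 19.3 CPM before growth and at least 9.67-fold lower after it.

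Further plasmids with no count at generation 10 carried PRM2 (at least 10.6-fold lower), the transcription factor gene SOK2 (at least 10.5-fold), YLL054C (at least 10.3-fold), the U1 snRNP gene NAM8 (at least 8.46-fold), the cohesin gene IRR1 (at least 8.39-fold), the cell wall gene GAS3 (at least 7.57-fold), VID27 (at least 7.40-fold) and GPC1, an acyltransferase of phosphatidylcholine synthesis (at least 7.25-fold). These 14 genes started between 13.5 and 34.4 CPM, so a fall as deep as that of ERG3 was not detectable at this depth. Each lost its call only where the 6 AGY1862 libraries were fitted alone with the replicate number as a block, where adjusted p lay between 0.21 and 0.31 by edgeR.

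**Figure D2:**
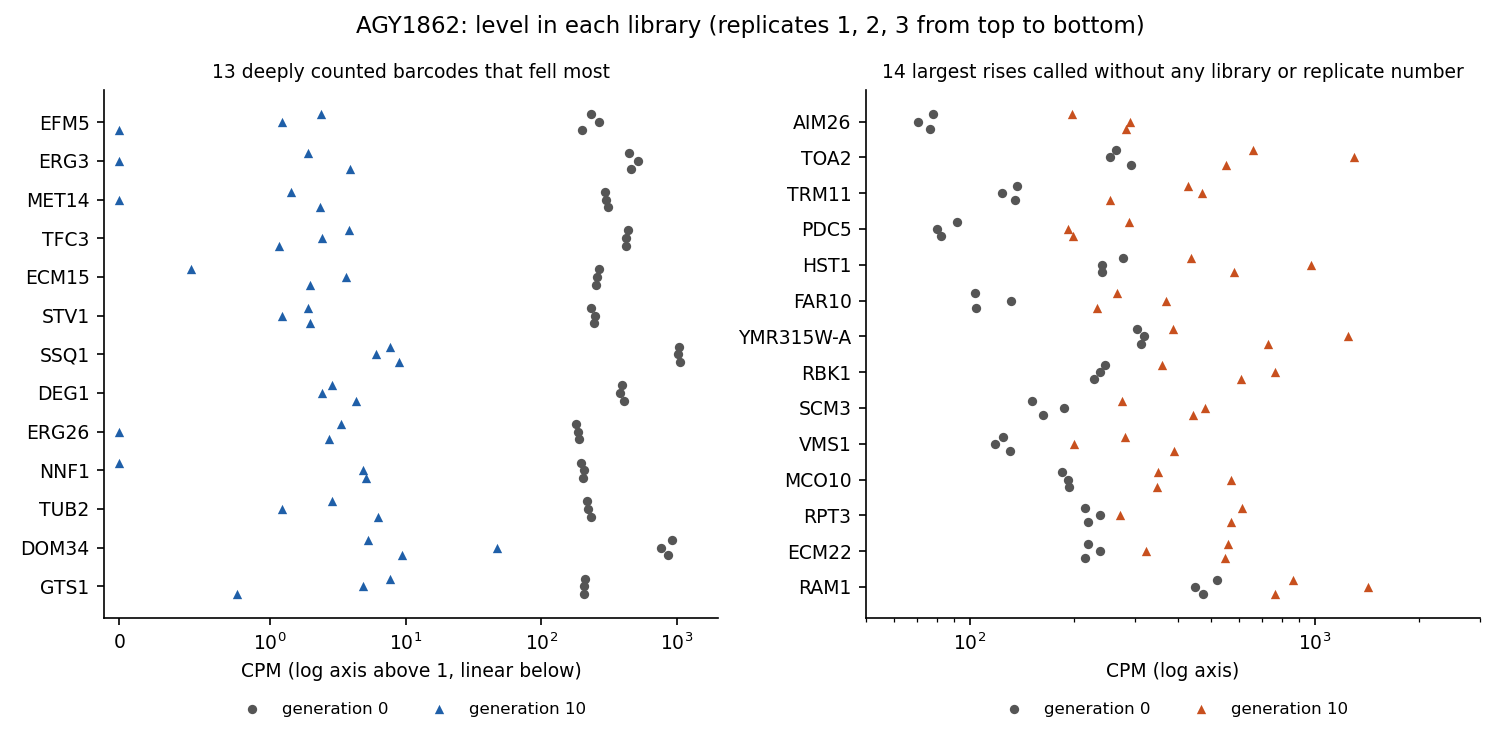
Levels in each AGY1862 library, in CPM (log axis, linear below 1 on the left), for the 13 deepest falls among plasmids with at least 1000 counts at generation 0 and the 14 largest rises called without any library or replicate number. Circles are generation 0, triangles generation 10, with replicates 1, 2 and 3 from top to bottom within a gene, and values of 0 are drawn at the left edge. The generation 10 values of ERG3 and SSQ1 lie under 10 CPM, far left of generation 0, while the rises, such as TOA2 at 551 to 1299 CPM, lie a short step to the right.

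Many of the deep falls were genes next to a centromere. The systematic name of a yeast gene gives its place on the arm, counted outward from the centromere, and 26 genes numbered 001 were tested. Of these 26, 12 fell (46.2%), against 11.5% of all entries, and 1 rose. The 12 were RRP6, EFM5, CIT3, MET14, TFC3, AVT1, ECM15, DEG1, LOC1, ERG26, DOM34 and HAT1. Their median log2 change was -7.26. HAT1, a histone acetyltransferase, had the smallest of the 12 falls, from 225, 232 and 226 CPM to 41.7, 49.9 and 41.9 CPM (-2.36). Among genes numbered 002, 5 of 25 fell (20%), and for numbers 003 to 010 the share that fell was between 3.85% and 9.09%, apart from number 008, where 4 of 20 fell (20%).

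The gene numbered 001 that rose was CDC5, the polo-like kinase of mitosis, at 225, 220 and 215 CPM before and 502, 821 and 227 CPM after growth (log2 change 1.22). The remaining 13 genes numbered 001 were not called. The log2 medians were -1.49 for number 001, or -1.35 with genes at 0 set to their bound, 0.0068 for number 002 and 0.023 for all entries. In the other 5 strains of batch 2 with generation 10 libraries, 12, 12, 12, 14 and 14 of these 26 genes fell, against 11.3%, 7.01%, 9.35%, 14.7% and 13.5% of all entries, in the order AGY1611, AGY1613, AGY1859, AGY1860 and AGY1863. The median of the 12 genes was -4.35 in AGY1611, -5.15 in AGY1613, -6.43 in AGY1859, -7.26 in AGY1860 and -6.62 in AGY1863, so a deep fall of these plasmids was measured in every strain. This grouping was chosen after the values were seen. The deepest falls of AGY1862 outside it include ERG3, STV1, SSQ1, NNF1 and TUB2.

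**Figure D3:**
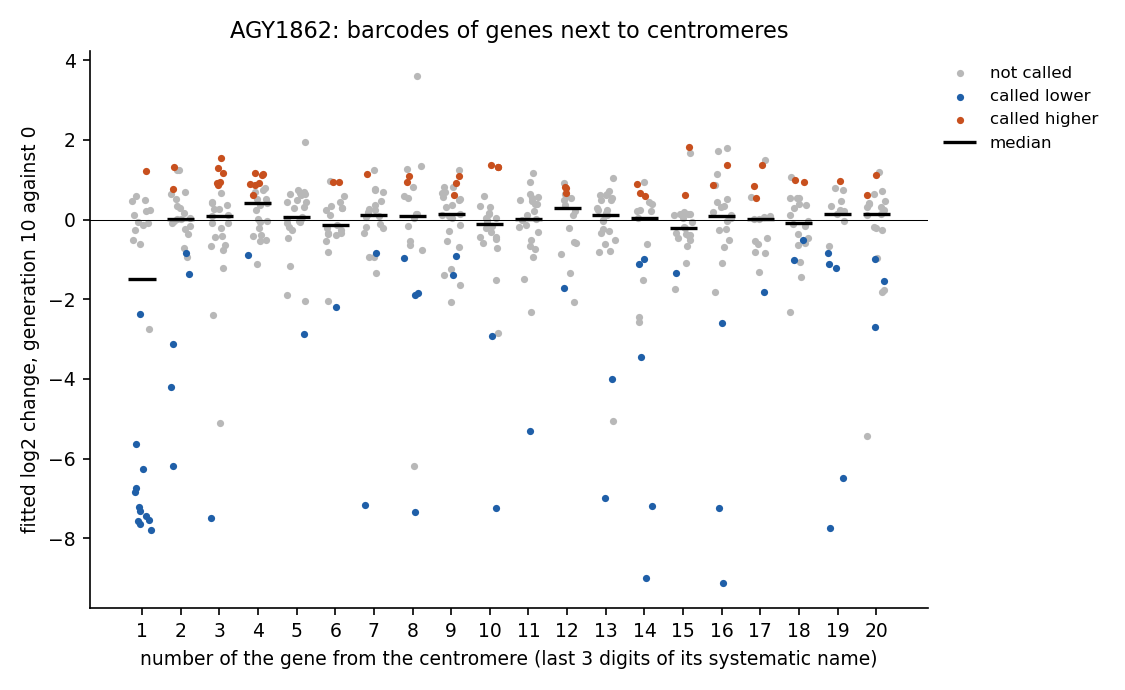
Log2 change in AGY1862 (vertical axis) for genes by their number from the centromere (1 to 20, horizontal axis). Points are entries, coloured as lower, higher or not called, and the bars are medians per number. Number 1 has a median of -1.49 with 12 of 26 genes called lower, while the median of number 2 is 0.0068.

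The rises were small beside the falls. AIM26 (YKL037W) had the largest rise among entries whose groups did not overlap, from 78.3, 70.6 and 76.6 CPM to 198, 290 and 283 CPM, a log2 change of 1.77 with an SE of 0.41 (adjusted p = 0.00156 by edgeR). TOA2 (YKL058W), the small subunit of the general transcription factor TFIIA, rose from 265, 255 and 292 CPM to 663, 1299 and 551 CPM, a log2 change of 1.62. Both rose in all 3 replicates, TOA2 most in replicate 2.

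The tRNA methyltransferase gene TRM11 rose from 136, 124 and 135 CPM to 428, 471 and 254 CPM (1.54). PDC5 (YLR134W), a minor pyruvate decarboxylase, rose from 91.6, 80.3 and 82.5 CPM to 289, 192 and 198 CPM (1.42). HST1, a histone deacetylase of the sirtuin family, rose from 277, 241 and 241 CPM to 437, 974 and 581 CPM (1.39). AIM26, TOA2, TRM11, PDC5 and HST1 kept their calls in 19 of the 20 alternative settings. The exception for each was the fit of the 6 libraries alone with the replicate block, with adjusted p between 0.066 and 0.12 by edgeR.

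The calls of other large rises depended on 1 library or 1 replicate number. The TFIIIB subunit gene BDP1 stood at 169, 429 and 117 CPM at generation 10 after 78.9, 72.7 and 87.7 CPM (log2 change 1.57). Without the generation 10 library of replicate 2, its adjusted p by edgeR was 0.19. In the same fit the adjusted p was 0.066 for KSS1, a mitogen-activated protein kinase of the filamentous growth pathway, 0.24 for ATP18, a subunit of ATP synthase, 0.095 for ALK1 and 0.40 for 1 of the 2 entries of BIM1, a microtubule plus-end protein. RAD30, a translesion DNA polymerase gene, kept its call without the generation 10 library of replicate 2 (adjusted p = 0.046 by edgeR). Without both libraries of replicate 2 its adjusted p was 0.13. In each of these entries every generation 10 value lay above every generation 0 value, and replicate 2 was the highest.

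For YML119W the high library was replicate 1, with 562, 117 and 128 CPM after 96.5, 105 and 98.9 CPM. Its adjusted p by edgeR was 0.63 without that library, and that of TRM13, a second tRNA methyltransferase gene, was 0.053. PIG2, a regulatory subunit of the Glc7 phosphatase, had a log2 change of 1.45 and was not called in 11 of the 20 alternative settings. The log2 changes of KSS1, YML119W, TRM13, ATP18, ALK1, RAD30 and the BIM1 entry were between 1.38 and 1.43 over all 6 libraries.

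Smaller rises were often more even between replicates. XKS1, the xylulokinase, went from 645, 614 and 652 CPM to 1151, 1108 and 1148 CPM (log2 change 0.83). The mitochondrial ribosomal protein gene MRPL24 went from 311, 310 and 317 CPM to 640, 575 and 573 CPM (0.93). LCB1, a subunit of serine palmitoyltransferase, which starts sphingolipid synthesis, went from 268, 266 and 265 CPM to 556, 522 and 441 CPM (0.93). For all 3 the lowest generation 10 value was well above the highest generation 0 value. ATP7, of the ATP synthase stalk (0.88), HTZ1, the histone H2A variant (0.67), RPT3, of the proteasome base (1.12), and SCM3, the chaperone of the centromeric histone (1.25), were also among the 27 rises that kept their call without any 1 library or replicate number.

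Gene lists were set against all entries tested, of which 11.5% fell and 6.7% rose with a median log2 change of 0.023. In the cell wall integrity and HOG kinase pathways, 9 of 27 tested entries fell (33.3%) and 1 rose, and the list's median was -0.86, or -0.40 with genes at 0 set to their bound. The sensor genes WSC2, MID2 (1 of its 2 entries) and MSB2, the exchange factor gene ROM1, the kinase genes MKK2, STE11 and PBS2, the phosphatase gene PTP3 and the response regulator gene SSK1 fell. WSC2 went from 395, 379 and 408 CPM to 218, 64.5 and 173 CPM (log2 change -1.35) and SSK1 from 527, 543 and 536 CPM to 87.7, 119 and 143 CPM (-2.20). MSB2, MKK2, STE11 and PBS2 started under 11 CPM and had no count at generation 10. Of all entries under 10 CPM at generation 0, 36.1% fell, and the part of starting level in this list's share was not tested. SLT2, the final kinase of the wall integrity cascade, rose from 218, 237 and 234 CPM to 407, 356 and 357 CPM (0.70). Without both libraries of replicate 2, or both of replicate 3, 5 of the entries of this list were called lower.

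Of the 51 tested entries for cell wall proteins and wall enzymes, 10 fell (19.6%) and 1 rose. CCW12, an abundant wall mannoprotein, fell from 249, 258 and 256 CPM to 27.8, 24.4 and 31.7 CPM, a log2 change of -3.17 with an SE of 0.42 (adjusted p = 1.75e-07 by edgeR). The 3 replicates of CCW12 lay close together after growth. The glucan synthase genes GSC2 (-6.20) and FKS3 (-5.65) fell, as did AGA2 (-1.94) and the glucanosyltransferase gene GAS1 (-0.96). Over all settings the fitted change ran from -10.3 to -5.57 for GSC2 and from -8.14 to -4.94 for FKS3. BGL2, an endoglucanase of the wall, rose (1.17) but was not called without the generation 10 library of replicate 2 (0.91, adjusted p = 0.14 by edgeR). When both libraries of replicate 2 were left out, 5 entries of this list were called lower.

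In the respiratory chain and ATP synthase, 12 of 37 tested entries rose (32.4%, against 6.7% of all entries) and 5 fell, with a median of 0.34. The rises were mostly subunits of ATP synthase, namely ATP16, ATP7, ATP14, ATP18, ATP15, ATP4 and ATP20, joined by the NADH dehydrogenase genes NDI1 and NDE2, the complex III genes QCR8 and QCR9, and STF2. ATP16 went from 467, 440 and 448 CPM to 683, 1535 and 768 CPM (log2 change 1.14). SDH1, the flavoprotein of succinate dehydrogenase, moved the other way, from 255, 256 and 264 CPM to 25.4, 32.9 and 64.6 CPM (-2.64). COX12, of cytochrome c oxidase (-2.81), both cytochrome c genes CYC1 (-3.95) and CYC7 (-2.32), and ATP17 (-0.60) also fell. With library size alone as the scaling, 8 of these entries were called higher. With neither library of replicate 2 in the fit, 2 were. ATP4 then had a log2 change of -0.040, and of -0.021 without the generation 10 library of replicate 2 alone.

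Of the 31 tested entries of sulfate assimilation and methionine metabolism, 7 fell (22.6%) and 0 rose. Beside MET14, they were SAM3, an S-adenosylmethionine permease gene, SAH1, the S-adenosylhomocysteine hydrolase, YCT1, a cysteine transporter, MET30, HOM2 and MET12. SAM3 went from 143, 177 and 148 CPM to 1 count, 1 count and none, a fitted log2 change of -8.53. SAH1 went from 324, 314 and 326 CPM to 117, 121 and 109 CPM (-1.47), with replicates close together at both times. The regulatory ubiquitin ligase gene MET30 was at 9.36, 9.50 and 9.59 CPM and then at 0 in all 3 libraries. Of all entries under 10 CPM at generation 0, 36.1% fell. MET14 is also one of the genes next to a centromere that fell. HOM2 was not called in 9 of 20 alternative settings, and MET12 was not in 10 of 17. Without the generation 10 library of replicate 2, HOM2 had a log2 change of -0.35 (adjusted p = 0.26 by edgeR).

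In the list of tubulin, actin and spindle pole genes, 11 of 51 tested entries fell (21.6%) and 4 rose. All 3 tubulin genes of the list that were called fell: TUB2 as above, the α-tubulin gene TUB1 (-3.80) from 77.9, 80.5 and 85.5 CPM to 14.9, 1.22 and 0.391 CPM, and the second α-tubulin gene TUB3 (-0.78). The kinesin genes KIP1 (-7.09) and KAR3 (1 of its 2 entries, at 0 after growth) fell too. BIM1 (1 entry), the tropomyosin gene TPM2 (1.01) and the spindle pole genes MPS2 (1.08) and MPS3 (0.98) rose. None of these 4 rises was called without the generation 10 library of replicate 2, where the log2 changes were 0.48 for BIM1, 0.020 for TPM2, 0.81 for MPS2 and 0.77 for MPS3. In the fit that left out replicate 1 altogether, 6 entries of the list were called lower.

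Glc7 is the catalytic subunit of protein phosphatase 1. Of the 16 tested entries of Glc7 and its regulators, 5 rose (31.2%), namely GLC7 itself (log2 change 1.19), GLC8 (1.10), YPI1 (0.92), PIG2 (1.45) and SCD5 (0.77), and GIP1, a meiosis-specific subunit, fell (-2.46). GLC7 stood at 458, 1039 and 323 CPM after growth against 263, 268 and 262 CPM before. GLC8 stood at 196, 1858 and 584 CPM after 409, 395 and 420 CPM, so its groups overlapped. YPI1 was more even, with 397, 416 and 377 CPM after 201, 206 and 223 CPM.

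These 5 calls depended on replicate 2 and on the scaling. Without the generation 10 library of replicate 2, 1 entry of the list was called higher, and GLC8 had a log2 change of -0.058. With replicate 2 left out at both times, 0 entries were, and GLC8 stood at -0.083. With library size alone, which moves the median change of all entries by -0.11, 2 were called higher. Directions in this text are relative to the TMM scaling.

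Sphingolipid synthesis had 5 rises (20.8%) and 0 falls among 24 tested entries. Beside LCB1 these were LIP1, of ceramide synthase (log2 change 1.33), AUR1, the inositol phosphorylceramide synthase (1.11), YPC1, a ceramidase (0.61), and CSH1 (0.60). AUR1 stood at 218, 883 and 214 CPM after 188, 197 and 219 CPM, so that its rise was in replicate 2 and the groups overlapped. Without both libraries of replicate 2, 2 entries were called higher, and with library size alone 3 were.

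Proteasome subunits rose in 4 of 27 tested entries (14.8%), all but PRE4 of the ATPase ring (RPT2, RPT3 and RPT6), and RPT4, at 11.1, 11.6 and 13 CPM before growth, had no count after it. Of these 4, only RPT3 was called with replicate 2 left out at both times, and PRE4 then had a log2 change of 0.079. Of 15 ion homeostasis entries, 3 fell (20%): the potassium transporter gene TRK1, the plasma membrane proton pump gene PMA1 and its activating kinase gene PTK2. PMA1 went from 138, 139 and 138 CPM to 3.35, 76.7 and 35.6 CPM (log2 change -1.89). The 3 values of PMA1 after growth were spread widely, and all lay under the generation 0 values.

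Among heat shock proteins and co-chaperones, 4 of 35 entries fell (11.4%), namely SSQ1, SIS1, YDJ1 (-1.35) and SSA2 (-0.94), and STI1 was called higher (1.54, with 27.8, 516 and 188 CPM after 82.1, 86.0 and 82.1 CPM). STI1 went down in replicate 1, its groups overlapped, and without the generation 10 library of replicate 2 its log2 change was 0.38 (adjusted p = 0.73 by edgeR). In the secretory pathway 7 of 55 entries fell (12.7%), among them the small GTPase genes ARF1 (-2.56), ARF2 (-0.88) and SAR1 (-3.90), and SEC20 rose (0.81). In the list of nuclear pore and import genes 6 of 42 entries fell (14.3%), including NUP60, MLP1 (-3.87) and MTR10, and NUP84 rose (1.02). Neither SEC20 (0.68) nor NUP84 (0.47) was called without the generation 10 library of replicate 2. These 3 shares of falls lay near the 11.5% of all entries.

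The largest list, the cytosolic ribosomal proteins, moved in both directions, with 12 of 125 entries falling (9.6%) and 10 rising (8%). The falls reached from RPL21B (log2 change -6.54) and RPS15 (-5.53) to RPL26A (-0.67), and the rises from RPL7A (1.30) and RPS19B (1.20) to RPS28B (0.52). Over all settings the fitted change ran from -8.27 to -6.11 for RPL21B and from -8.81 to -4.90 for RPS15. Most cytosolic ribosomal proteins are made from 2 near-identical genes, but each plasmid is told by its barcode and not by the gene's own sequence. Mitochondrial ribosomal proteins had 4 falls and 4 rises in 63 entries, and ribosome biogenesis factors 5 falls and 9 rises (9.18%) in 98. The RNA polymerase factors, 5 falls and 4 rises in 36 entries, held both TFC3 and the rise of RPC34 (1.55, at 119, 950 and 167 CPM after 147, 137 and 133 CPM). The groups overlapped for RPC34, and its log2 change was 0.047 without that generation 10 library (adjusted p = 0.96 by edgeR). In glycolysis and fermentation, PDC5, GPP2 (0.79) and PGK1 (0.82) rose (10.7%) and FBA1, ADH1 (-1.40), ADH2 (-0.70) and HXK2 (-0.62) fell (14.3%), of 28 entries. GPP2 stood at 0.31 and was not called without the generation 10 library of replicate 2 (adjusted p = 0.38 by edgeR), whereas PDC5 and PGK1 kept their calls. Over the 20 alternative settings, PGK1 was not called in 8 and PDC5 was not called in 1.

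**Figure D4:**
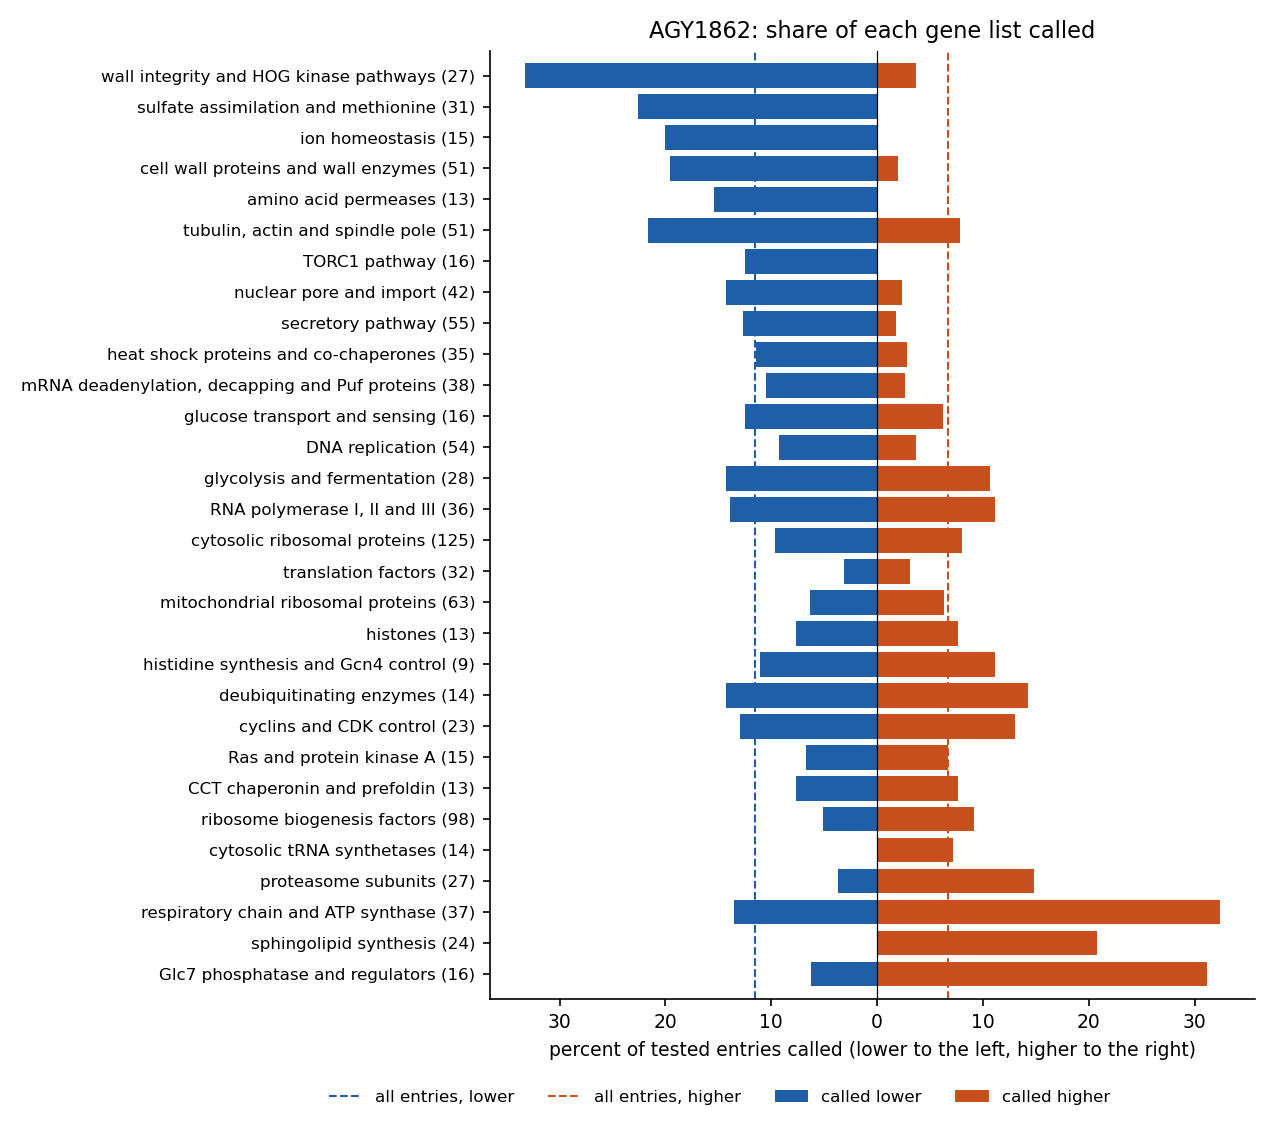
Percent of the tested entries of each gene list that were called lower (blue) or higher (orange) in AGY1862, with the number tested beside the list's name. Dashed lines mark the 11.5% lower and 6.7% higher among all entries tested. The wall integrity and HOG list reaches 33.3% lower, the respiratory chain and ATP synthase list 32.4% higher.

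By chromosome, III had the highest share of rises, 23 of 109 entries (21.1%). The median log2 change of III less that of the other chromosomes was 0.075 in replicate 1, 0.46 in replicate 2 and 0.22 in replicate 3, over 103 entries of chromosome III. In the 15 replicates of the other 5 strains it ran from -0.21 to 0.19. Without the generation 10 library of replicate 2, 7 entries of III were called higher, against 6 with both libraries of replicate 2 left out and 12 with library size alone. Chromosome III is not one of the chromosomes that the series' strains carry in an additional copy.

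Longer genes fell more often. Among the longest 1144 entries (1808 to 9279 bases) 16.9% fell and 2.62% rose, and among the shortest 1143 (78 to 741 bases) 8.75% fell and 9.01% rose. Long genes also started lower, with a median of 107 CPM at generation 0 against 227 CPM for the shortest. With the entries of at least 100 CPM divided in the same way, 13.3% of the longest fell and 6.26% rose, against 9.09% and 10.6% of the shortest. The part of plasmid level in this pattern beyond that comparison was not tested.

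Genes that rose were often next to each other. There were 3158 pairs of consecutive genes on 1 arm with 1 tested entry each, and both genes rose in 37 pairs, both fell in 53, and the genes moved in opposite directions in 38. Of the neighbours of genes that rose, 17.9% rose too, against 6.54% of all members of pairs. Of the neighbours of genes that fell, 14.4% fell, against 11.6%. A run of 4 genes on chromosome XV rose together, with log2 changes of 1.62 for SMF1, a manganese transporter, 0.85 for HRP1, of mRNA 3′ end cleavage, 1.54 for TRM11 and 1.42 for TRM13. NGL3 (1.34), YML119W (1.43) and NDI1 (0.96) are another such run, as are CDC10 (1.32), MRPL32 (1.18) and YCP4 (0.87) on chromosome III.

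These runs did not rise evenly in the replicates. SMF1 stood at 282, 751 and 116 CPM after 130, 114 and 127 CPM, and CDC10, a septin, at 353, 1847 and 308 CPM after 348, 320 and 329 CPM. The groups overlapped for SMF1, CDC10, NGL3 and YCP4. STB2, STV1 and BUB2 on chromosome XIII were a run of falls, with fitted log2 changes of -6.13, -7.04 and -7.76, and SSQ1 fell with its neighbour ARC18 (-1.47), of the Arp2/3 complex. Neighbouring genes were compared after the values were seen.

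Both entries of 43 genes were tested, and 27 of these pairs had the same call. Both entries fell in 1 of these pairs and rose in 0, and in the rest of the 27 neither entry was called. Of all entries tested, 18.2% were called, so most pairs without a call say little about agreement. Both entries of ARO8, an aromatic aminotransferase gene, fell, from 275, 281 and 273 CPM to 124, 60.9 and 102 CPM (log2 change -1.52) in the first entry and with a log2 change of -1.58 in the second. For 14 genes 1 of the 2 entries was called. For CHK1, a checkpoint kinase, and YGL081W the entries moved in opposite directions. One CHK1 entry went from 248, 230 and 259 CPM to 124, 192 and 122 CPM (-0.76) and the other from 268, 240 and 256 CPM to 426, 420 and 387 CPM (0.69), with no overlap of groups in either.

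The changes in AGY1862 were then set beside those of the 5 other strains of batch 2 that have generation 10 libraries, AGY1611, AGY1613, AGY1859, AGY1860 and AGY1863, with 3 libraries per strain and generation. Of the 526 genes that fell in AGY1862, 140 fell in all 5 others and 94 in 0 others. Of the 307 that rose, 6 rose in all 5 others and 134 in 0 others. Of all entries tested, 11.3%, 7.01%, 9.35%, 14.7% and 13.5% fell in the 5 others, in the order named. The shares of all entries that rose in the 5 others are not given here. The counts of shared and unshared rises thus have no base rate beside them and do not show rises particular to AGY1862. These counts compare calls and do not test a difference. The difference itself was tested against the mean change of the 5 strains, where 33 entries were called (0.721%), 12 lower in AGY1862 (0.262%) and 21 higher (0.459%), by edgeR's adjusted p, with 590 at an unadjusted p under 0.05 (12.9%). Against AGY1611 alone, 11 entries were called (0.24%), all lower in AGY1862, with 544 at an unadjusted p under 0.05 (11.9%). Both counts hung on single libraries of AGY1862. Without generation 0 replicate 1, 2 or 3, 5, 4 and 5 entries differed from the mean and 6 each from AGY1611, whereas without generation 10 replicate 1, 2 or 3 the counts were 141, 24 and 197 from the mean and 27, 25 and 80 from AGY1611. ARF1, SIS1, TFC3 and FMP48 lost their calls in the fewest settings.

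ARF1 (YDL192W), the small GTPase that recruits vesicle coats at the Golgi, had the smallest p of the difference from the mean. In AGY1862 it fell from 305, 309 and 305 CPM to 55.6, 41.4 and 56.4 CPM, a log2 change of -2.56. The difference from the mean of 5 strains was -2.11 with an SE of 0.27 (adjusted p = 2.89e-06 by edgeR), and stayed between -2.19 and -2.00 and called in all 19 alternative settings. AGY1863 also fell, to 65.8, 68.0 and 65.4 CPM (-2.17), and AGY1860 fell less (-0.72, adjusted p = 0.024 by edgeR). AGY1859 rose (1.08), and the values of -0.10 in AGY1611 and -0.36 in AGY1613 were not called. The fall of ARF1 was thus not confined to AGY1862.

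SIS1 (YNL007C), an essential J-protein that works with Hsp70, went from 28.1, 36.6 and 30.4 CPM to 1 count in replicate 1 and none in the others. In the other strains it stood between 21.2 and 97.3 CPM at generation 10, apart from 1 AGY1611 library at 0. The fitted log2 difference from the mean was -7.78 with an SE of 1.25 (adjusted p = 0.000311 by edgeR), and from AGY1611 -7.06 (0.0141). The plasmid of FMP48 went from 250, 264 and 254 CPM to 8.62, 65.7 and 17.2 CPM (-3.20), with a difference of -2.35. FMP48 also fell in AGY1611 (-2.20), AGY1859 (-1.48) and AGY1860 (-1.08), and stood at 0.27 in AGY1613 and 0.20 in AGY1863.

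GPT2, at 0 in all 3 generation 10 libraries of AGY1862, had a fitted difference of -8.71 (SE 2.12, adjusted p = 0.0441 by edgeR), and the aldolase gene FBA1, with 1 count at generation 10, one of -6.17 (0.0441). The fitted differences of GPT2, FBA1 and SIS1 rest on the prior count and are no measure of how far these plasmids fell, since their generation 10 levels lie under the floor of 3 counts per library. GPT2 was at 0 in 2 of 3 libraries of AGY1859, 2 of AGY1860 and 1 of AGY1863 as well. HAL5, a kinase gene that supports ion tolerance, was lower than the mean by -1.65 where the mean holds large rises: its log2 change was 4.52 in AGY1859 and 3.43 in AGY1860, against 0.70 in AGY1862, where it was not called. HAL5 stood at 574, 233 and 385 CPM in AGY1862 after growth, and at 513, 423 and 666 CPM in AGY1611.

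On the higher side, TDH3 (YGR192C), the main glyceraldehyde-3-phosphate dehydrogenase, stood at 488, 1095 and 554 CPM after 526, 563 and 547 CPM in AGY1862, a change of 0.38 that was not called. It fell in AGY1611 (-0.63), AGY1613 (-0.88), AGY1859 (-1.46) and AGY1860 (-0.53) and stood at -0.27 in AGY1863, and the difference from the mean was 1.13 with an SE of 0.22 (adjusted p = 0.00578 by edgeR). RAM1, the β subunit of protein farnesyltransferase, rose in AGY1862 from 521, 448 and 472 CPM to 862, 1422 and 766 CPM (1.08), against -0.40 to 0.33 in the others, none of them called (difference 1.11, adjusted p = 0.0108 by edgeR). MCO10 (difference 1.04), YDL124W (1.10) and RPL40A (1.15), a ubiquitin and ribosomal protein fusion, rose in AGY1862 with no call in the 5 others. UBX3 was 1.41 above the mean, with -0.60 in AGY1862 (164, 594 and 162 CPM after growth) and -3.09 to -0.87 elsewhere. Without both AGY1862 libraries of replicate 2, none of TDH3, RAM1, RPL40A, YDL124W and UBX3 was called as different from the mean. Their adjusted p values by edgeR were then 0.18, 0.24, 0.32, 0.73 and 0.83.

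Against AGY1611, 6 of the 11 entries fell in both strains and fell deeper in AGY1862. SIS1 and ARF1 fell in AGY1862 and were not called in AGY1611, and CDS1 (1.42), RGM1 (0.73) and SKP1 (1.06) rose in AGY1611. TFC3 stood at 3.83, 2.44 and 1.17 CPM in AGY1862 and at 8.21, 31.3 and 89.2 CPM in AGY1611 at generation 10, and the log2 changes were -7.45 and -3.37 (difference -4.08, SE 0.73, adjusted p = 0.00223 by edgeR). ECM15 differed by -3.16, MET14 by -2.92, DEG1 by -2.91, ERG3 by -2.84 and SSQ1 by -2.81. The AGY1862 means of ECM15, MET14 and ERG3 at generation 10, 2.03, 1.26 and 1.94 CPM, lay under the mean floor of 2.09 CPM. The sizes of their differences rest on few counts. Each of these 6 shared falls had a log2 change under -3 in all 6 strains. In AGY1859, AGY1860 and AGY1863 the changes of MET14 were -7.39, -8.23 and -7.56, near the -7.54 of AGY1862.

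**Figure D5:**
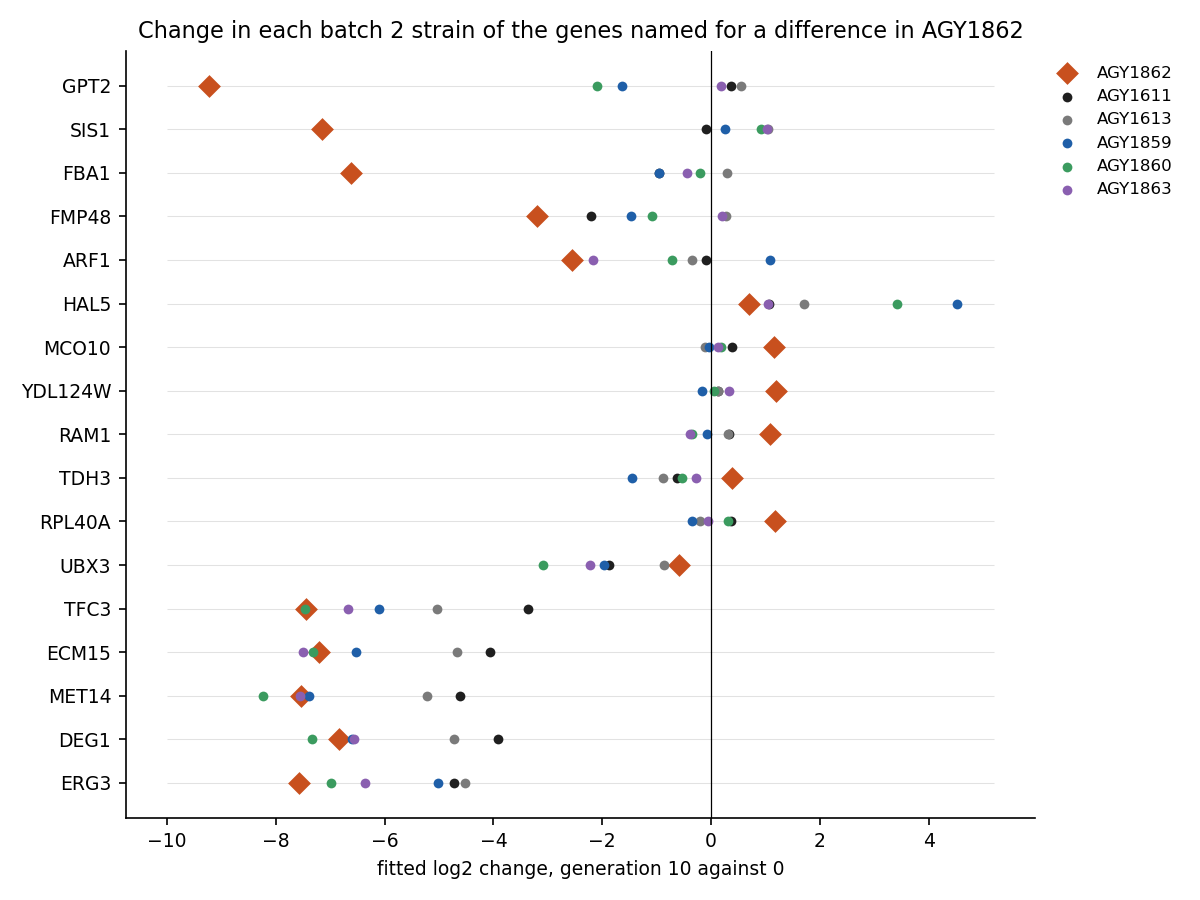
Log2 change from generation 0 to generation 10 in each of the 6 strains (horizontal axis) for the 17 genes named for a difference between strains. Diamonds are AGY1862 and dots the 5 other strains. ARF1 lies near -2.56 in AGY1862, -2.17 in AGY1863 and -0.72 in AGY1860, with the rest higher, and SIS1 lies far below the other strains in AGY1862.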

How the data were processed

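The authors deposited raw barcode counts, 1 whole number for each plasmid and library, in 1 table for batch 2; how reads were matched to barcodes is not given in the sources used here. All 51 libraries of batch 2 (17 groups of strain and generation) were fitted together with edgeR 4.0.16 (limma 3.58.1, R 4.3.3), with TMM scaling, filterByExpr at a minimum count of 10, 1 coefficient per group and quasi-likelihood tests, so that the spread is estimated over all groups. The empty vector entered neither the fit nor the library sizes. The filter left 4579 of 4871 entries, which stand for 4817 genes, since 54 genes have 2 entries. Called means a Benjamini-Hochberg adjusted p under 0.05. DESeq2 1.42.0 and other scalings, filters, blocks and subsets of libraries were alternatives. Names came from the gene table of assembly R64, which matched 4865 entries. The pipeline was tested on simulated data.

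Named genes were the 14 largest changes each way among called entries with a mean of at least 50 counts at generation 0 and groups apart, up to 3 called members each way of each gene list, and the largest differences between strains called with at least 50 counts in every strain. The members and lists were chosen with earlier results of these data known. The deep falls (at least 1000 counts at generation 0), the evenly kept rises, the genes next to centromeres, further list members, chromosome III, gene length and neighbouring genes were chosen after their values were seen. A gene at 0 in all generation 10 libraries is bounded with 3 counts per library, and list medians are also given with such bounds. The generation 0 totals of 3922180 to 6953487 counts give precise starting levels; the generation 10 totals of 924031 to 2439515 leave plasmids under about 10 CPM unresolved, since 3 counts are 1.17 to 3.65 CPM. A common quasi-likelihood fit assumes that AGY1862 varies like the other strains. It also uses 1 estimate of spread per entry for all generations. In entries of 100 to 300 CPM the median SD of log2 CPM was 0.0507 at generation 0 and 0.56 at generation 10. The SE and adjusted p values can therefore be too small. Protein and promoter sequences were not used here, and 1 gene is not reported here.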

Additional observations from a re-analysis of the deposited data

Results flagged for a closer look

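The difference in change between AGY1862 and the mean of the 5 other strains was past the threshold, by edgeR's test of the difference itself, for the genes named by the rule. On the log2 scale the fitted difference was -8.71 for GPT2, -7.78 for SIS1 and -6.17 for FBA1, which have 0 or 1 count at generation 10 in AGY1862, so that these values depend on the prior count and are no bound. It was -2.35 for FMP48, -2.11 for ARF1 and -1.65 for HAL5. It was 1.04 for MCO10, 1.10 for YDL124W, 1.11 for RAM1, 1.13 for TDH3, 1.15 for RPL40A and 1.41 for UBX3. Those of HAL5, YDL124W, RAM1, TDH3, RPL40A and UBX3 were not past the threshold without both AGY1862 libraries of replicate 2. The strains share no libraries with AGY1862, but every value is relative to the other plasmids of its own pool.

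The difference from AGY1611 alone was past the threshold for SIS1 (-7.06, under the same limit), TFC3 (-4.08), ECM15 (-3.16), MET14 (-2.92), DEG1 (-2.91) and ERG3 (-2.84). For ECM15, MET14 and ERG3 the mean level of AGY1862 at generation 10 also lay under the floor of 3 counts per library, so these sizes are inexact.

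The barcode of the empty vector, which entered no comparison, had a higher share at generation 10 in all 3 replicates of AGY1862. It held 0.0175%, 0.00507% and 0.0162% of counts at generation 0 and 0.0506%, 0.0221% and 0.0404% at generation 10. The exact 95% binomial intervals of the generation 10 shares were 0.0475% to 0.0538%, 0.0192% to 0.0253% and 0.0379% to 0.0430%, for counting error only, and each lay above the share of its replicate number at generation 0. A rise called in this text is a gain over the bulk of the plasmids and was not compared with the change of the empty vector.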

How the results depend on the processing

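The 833 changes called in AGY1862 became 369 (298 lower, 71 higher) when only its 6 libraries were fitted, and between 432 and 991 when 1 library, or both libraries of a replicate number, was left out, with the lowest count without both libraries of replicate 2. DESeq2 called 969. With library size alone 22.3% of 752 calls were higher, and without the AGY1861 libraries 47.5% of 814, against 36.9% of 833. Other settings without a replicate block gave 735 to 843. The 33 differences from the mean of 5 strains became 185 with DESeq2, 15 with library size alone, 7 with a mean of at least 50 counts at generation 0, 6 without the AGY1861 libraries and 7 without generation 5 libraries, and 4 to 197 with an AGY1862 library or replicate number left out. The 11 differences from AGY1611 became 118 with DESeq2, 7 with DESeq2's size factors, 6 without generation 5 libraries, 1 with only the 12 libraries of both strains, and 6 to 80 with AGY1862 libraries left out. The cause was not tested. Of the named changes, GLC8 turned to -0.0576 with generation 10 replicate 2 left out and -0.0835 with both libraries of replicate 2 left out, and ATP4 to -0.0209 and -0.0403; over these repeats their values reached 1.598 and 1.629. Depth limits plasmids that started under 10 CPM, for which a fall to 0 is bounded at a few-fold.

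Whether the replicate numbers pair the libraries was not settled. The labels describe separate transformations and a generation 0 taken from the rest of each stock, but do not say that a number marks a shared stock. The share of the empty vector followed the number in AGY1611 (0.0183%, 0.0166% and 0.0169% in replicate 2 at generations 0, 5 and 10, at most 0.00184% in replicates 1 and 3) and was lowest in replicate 2 of AGY1862 at both times. It also followed the number in AGY1613 (0.0290%, 0.0227% and 0.0218% in replicate 2, at most 0.00230% in replicates 1 and 3). In AGY1859 replicate 2 had the highest share at generation 0 and the lowest at generation 10, and in AGY1863 replicate 3 did. Over 4371 entries, deviations of same-numbered AGY1862 libraries from their group means correlated at 0.13, -0.090 and 0.075, and only replicate 1 correlated best with its own number. With the replicate block, 1009 changes were called over all batch 2 libraries and 80, all lower, over the 6 AGY1862 libraries. The differences with the block were 20 from the mean of 5 strains, 2 from that mean when only generations 0 and 10 of 6 strains were fitted, and 11 from AGY1611.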
